A study of Mus musculus with 16 samples.

Results

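The solute carriers are a large group of membrane transport proteins, named Slc with a family number, that move amino acids, sugars, nucleosides, vitamins, metals and other ions across cell and organelle membranes. Their genes were followed here in hippocampal microglia of aged and young mice; microglia are the immune cells that live in brain tissue. A gene was taken as a member when its symbol began with Slc and a digit and its level reached 10 normalized counts in at least 6 of the 12 samples, leaving out symbols beginning Slc2a, Slc11a and Slc40a1. Of 374 such symbols among the 24015 rows of the table, 16 had a left-out beginning, and 186 of the remaining 358 reached the level. These 186 members, from 41 families, were part of the 11579 genes of the table that reached the same level. The members were thus chosen by their level over both ages together, and that level is not a result. The other 172 carriers did not reach it, 67 of them were at 0 in every sample, and 35 reached 10 in at least 1 sample. The last members inside the limit were Slc10a1, Slc45a3 and Slc5a11, whose sixth-highest samples stood at 10.4, 12.1 and 12.2 normalized counts, and the first outside it were Slc16a8, Slc25a47 and Slc10a6 at 9.98, 9.82 and 9.62. In every sample 174 members stood at 10 or more, and no member had all samples of 1 age and none of the other at that level. Slc4a3 reached that level in 6 aged but only 2 young samples, and so became a member through the aged ones. The label was checked against gene function, and 4 members are named after a carrier without being one. Slc9a3r1 and Slc9a3r2 are scaffold proteins that bind an exchanger, and Slc4a1ap and Slc7a6os are named for a binding partner and a neighbouring gene. The other 182 members, counted here as carriers, include Slc3a2, a heavy chain that brings carriers to the surface.

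The aged group was microglia from 6 samples of mice 20 months old, and the young group microglia from 6 samples of mice 3 months old. The young mice and aged samples 1 to 4 carry the strain label C57BL/6, while aged 5 and aged 6 carry labels that differ from it in the last digit and rise from library to library, which may be an entry error. No genotype change, treatment or sex is given. Whether each sample came from 1 animal or from several pooled ones is not labelled, and the p-values cover the variation among these samples, which may be technical. After myelin removal, live CD11b-positive CD45-low cells were sorted, and libraries were made with SmartSeq v4 and Nextera XT kits, without strand information, and read from both ends.

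The authors' table gives normalized counts, that is reads per gene divided by a size factor for the depth of each library. Depth was 24.2 to 58.2 M reads in aged samples and 11.4 to 56.7 M in young samples, the shallowest being young 1 (exact two-sided permutation test of the means, p = 0.777, 6 against 6 samples). The 8 microglial identity genes checked, among them Tmem119 and P2ry12, summed to 58651 to 63982 CPM, normalized counts scaled to a common total, in aged samples and 64148 to 69366 CPM in young samples. Of 14 lists of other cells, the monocyte list differed by an exact permutation test adjusted over all 15 lists, with 5.61 to 11.9 CPM in aged and 2.37 to 6.99 CPM in young samples (p = 0.022). A B cell list of which 1 gene was tested gave 27.5 to 34.9 CPM in aged and 36.2 to 45.8 CPM in young samples (adjusted exact permutation p = 0.016), and the microglial sum gave the same adjusted p of 0.016. The 8 astrocyte markers, 3 of them tested and all above 0 in at least 1 sample, summed to 3.64 to 14.99 CPM in aged and 3.55 to 4.47 CPM in young samples (adjusted exact permutation p = 0.089). The 8 choroid plexus markers, 5 of them tested, summed to 16.5 to 132 CPM in aged and 9.97 to 49.4 CPM in young samples (adjusted exact permutation p = 0.14). Covariates made from the astrocyte and from the choroid plexus markers entered separate fits, given below. The CPM ranges and p-values above describe the sums and not these covariates. Of the 3 tested astrocyte markers, 1 was itself called higher in aged microglia by limma. The part of the other lists, the monocyte and B cell lists included, was not tested.

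Carriers work either as uniporters that let a solute follow its own gradient or as cotransporters and exchangers that couple it to sodium, protons, chloride or a second solute. In microglia they feed the cell with amino acids and nucleosides, export lactate, return digested material from lysosomes, and set the pH of endosomes and the cytosol. A family of its own mostly serves the inner mitochondrial membrane. Another serves mostly the Golgi and endoplasmic reticulum (ER), where it brings nucleotide sugars to the enzymes that build glycans.

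Most solute carriers differed little between 20 and 3 months, and 5 passed the test of age. Slc4a3 and Slc7a4 were higher in aged microglia, and Slc43a1, Slc25a13 and Slc15a3 were lower, out of 186 members. Because Slc4a3 became a member only through its aged samples, its call is counted here only as a description. The test was limma on the log2 scale after 1 was added to each normalized count, fitted across all 11579 genes with Benjamini-Hochberg adjustment at 0.05. Log2 fold changes are aged minus young on that scale, where the added 1 draws the change of low genes toward 0. They compare means of logs, so a fold can differ from the ratio of the 2 means given beside it. In both directions together the 5 calls are 2.69% of the members, near the 1.73% called among all tested genes. By direction they were 2 higher and 3 lower of 186, against 1.27% higher and 0.458% lower of all tested genes. Between the ages 175 members lay within 1.5-fold either way and 153 within 1.2-fold. In sorted bulk RNA, fewer cells of a type and less RNA per cell cannot be told apart.

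Slc4a3, an anion exchanger that trades chloride for bicarbonate, had the largest fold among the called members. In aged samples it ran from 22.3 over a median of 40.6 to 48.4 normalized counts, and in young samples from 1.70 over 6.63 to 24.6. Young 1, the shallowest library, in which 1 read was worth 2.46 normalized counts, lay above aged 6, and all other young samples lay below every aged sample. The means were 38.8 ± 9.54 in aged and 9.58 ± 8.31 in young samples (SD, n = 6 each), a log2 fold change of 2.23 ± 0.47 (SE), or 4.68-fold (limma, adjusted p = 0.0179). Without aged 3 its limma adjusted p was 0.0502, and without young 1 it was 0.0039. The gene reached 10 normalized counts in 6 aged and 2 young samples, so it became a member only through the aged samples, where it is high, and its call, on low counts, is given only as a description. It lies on the plus strand at chr1:75546266-75562172 of mm10 and is a protein-coding gene.

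Slc7a4, a relative of the cationic amino acid transporters, was higher in aged microglia as well. It ran from 108 over 160.1 to 247 normalized counts in aged samples and from 43.8 over 64.3 to 129 in young samples. Young 3 stood above aged 2 and aged 3 and just below aged 1, while the other 5 young samples stood below every aged sample. The means were 166 ± 57.5 in aged and 71.0 ± 30.3 in young samples (SD, n = 6 each), 2.35-fold, with a log2 fold change of 1.23 ± 0.26 (limma, adjusted p = 0.0195). Without young 1, young 4 or aged 4 the call was lost (limma adjusted p = 0.051 to 0.053), and with the astrocyte markers as a covariate the log2 fold change was 0.73 (limma adjusted p = 0.31). The gene lies on the minus strand at chr16:17572018-17583214, and 13.3% of its exon length overlaps P2rx6 on the other strand. P2rx6 stood at 13.98 ± 12.3 in aged and 13.1 ± 9.21 normalized counts in young samples (limma adjusted p = 0.978).

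Slc43a1, a transporter of large neutral amino acids such as leucine, was lower in aged microglia and the called member whose ages did not overlap. It ran from 48.3 over 67.1 to 84.3 normalized counts in aged samples and from 93.9 over 117 to 123 in young samples. Aged 1 and aged 2 were lowest, and the highest aged sample, aged 6, lay below the lowest young sample, young 3. Means of 64.6 ± 13.6 in aged and 114 ± 10.7 in young samples (SD, n = 6 each) gave a log2 fold change of -0.83 ± 0.18, or 1.78-fold lower (limma, adjusted p = 0.0203). The call was lost without young 2, young 5 or young 6 (limma adjusted p = 0.052, 0.061 and 0.056). The gene is protein-coding, on the plus strand at chr2:84838850-84863594.

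Slc25a13, known as citrin, carries aspartate out of mitochondria in exchange for glutamate, a step of the malate-aspartate shuttle. It ran from 101 over 142 to 213 normalized counts in aged samples and from 206 over 236 to 336 in young samples. Aged 4 lay above young 3, and the other aged samples lay below every young one. Means were 144 ± 39.7 in aged and 258 ± 54.8 in young samples (SD, n = 6 each), with a log2 fold change of -0.85 ± 0.18, or 1.80-fold lower (limma, adjusted p = 0.0211). Leaving out aged 1, young 1, young 5 or young 6 ended the call, with limma adjusted p-values of 0.054, 0.058, 0.0505 and 0.066. Its close relative Slc25a12, the other mitochondrial carrier of aspartate and glutamate, stood at 1038 ± 67.9 in aged and 1035 ± 87.0 normalized counts in young samples. Slc25a13 spans chr6:6041218-6217173 on the minus strand.

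Slc15a3, a lysosomal carrier that moves histidine and short peptides to the cytosol with protons, was lower in aged microglia. It ran from 540.5 over 614 to 816 normalized counts in aged samples and from 683 over 962 to 1101 in young samples. Young 1 was lowest of its age and lay below aged 3 and aged 6, the only overlap. Means of 653 ± 99.7 in aged and 944 ± 142 in young samples (SD, n = 6 each) gave a log2 fold change of -0.53 ± 0.12, or 1.44-fold lower (limma, adjusted p = 0.0325). It was the least stable of the 5 calls when 1 sample was left out: it held without young 1, aged 3 or aged 6, and was lost without any of the other 9 samples (limma adjusted p up to 0.088). Its exons, at chr19:10839727-10859362 on the plus strand, overlap those of Tmem132a on the other strand over 28.1% of their length. Tmem132a stood at 299 ± 35.2 in aged and 374 ± 115 normalized counts in young samples (limma adjusted p = 0.678), so reads of both could not be told apart there.

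Between kinds of samples these calls varied more than the fold changes did. On the 8 samples with 1 library each, limma called 0 members (0.674% of all tested genes), edgeR 0 (0.786%) and DESeq2 7 (2.03%), and at an unadjusted p under 0.05 limma counted 7 higher and 14 lower and edgeR 8 higher and 14 lower. The 7 calls of DESeq2 held the 5 above, Slc25a22 and, named after its value was seen, Slc38a10. With the astrocyte markers as a covariate limma called 0 members (7 higher and 27 lower at an unadjusted p under 0.05) and 0.734% of all tested genes, and with the choroid plexus markers it called Slc4a3 and Slc15a3 and 1.17% of all tested genes. Without aged 5 and aged 6, whose strain labels differ, limma called Slc4a3, Slc43a1 and Slc15a3 (adjusted p = 0.037, 0.012 and 0.024) but not Slc7a4 or Slc25a13 (log2 fold changes 1.00 and -0.75, adjusted p = 0.0999 and 0.069). No fold change of the 5 turned its sign in any of up to 29 alternatives.

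**Figure D1:**
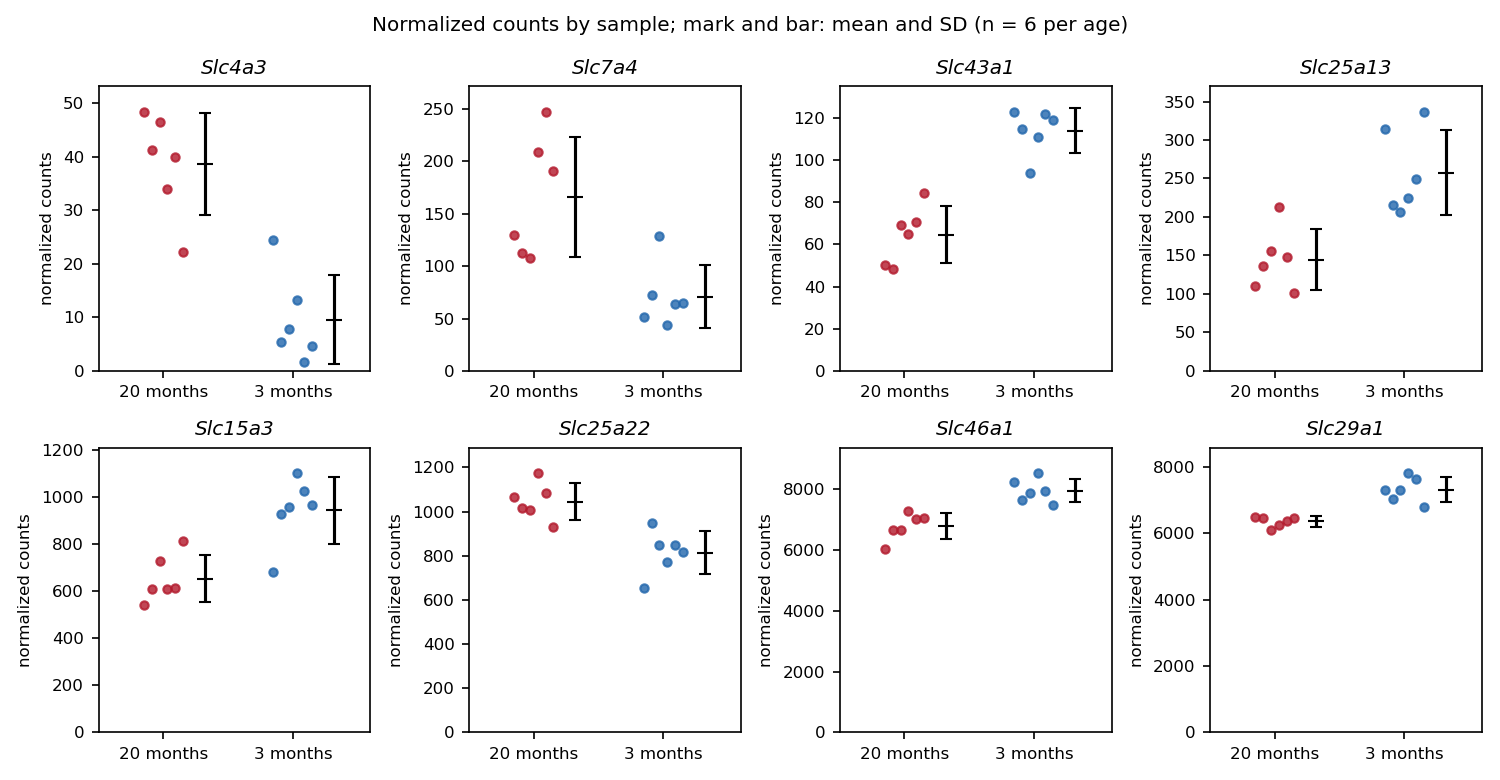
Normalized counts of the 5 called members and of Slc25a22, Slc46a1 and Slc29a1, with a point per sample, aged (20 months) left of young (3 months), and the mean with its SD beside them (n = 6 per age). Aged points of Slc43a1, Slc46a1 and Slc29a1 all lie below the young ones, and in Slc4a3 young 1, at 24.6, is the only young point within the aged range.

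The start regions of 3 of the 5 called members were in the RefSeq table of promoters (GRCm38.p6, 250 bases before to 50 after the start), and they are shown because 2 of them belong to genes that were lower in aged microglia and hold the same motif. Capitals mark the E-box CACGTG, the core bound by factors of the MYC, MITF and TFEB kind, the TATA box TATAAA, and the core GAGGAAGT bound by ETS factors such as PU.1.
Slc43a1, chr2:84840073-84840372, plus strand: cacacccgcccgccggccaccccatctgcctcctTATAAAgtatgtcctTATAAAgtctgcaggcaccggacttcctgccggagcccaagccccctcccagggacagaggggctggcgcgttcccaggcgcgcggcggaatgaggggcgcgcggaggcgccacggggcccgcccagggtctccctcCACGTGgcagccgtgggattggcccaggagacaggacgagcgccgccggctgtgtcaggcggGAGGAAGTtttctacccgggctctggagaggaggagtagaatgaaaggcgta
Slc25a13, chr6:6217124-6217423, minus strand: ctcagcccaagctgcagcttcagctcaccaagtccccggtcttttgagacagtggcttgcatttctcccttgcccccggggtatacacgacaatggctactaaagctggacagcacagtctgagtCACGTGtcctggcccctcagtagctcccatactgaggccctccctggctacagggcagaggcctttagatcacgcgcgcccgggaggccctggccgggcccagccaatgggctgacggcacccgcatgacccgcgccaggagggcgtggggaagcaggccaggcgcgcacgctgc
Slc4a3, chr1:75546212-75546511, plus strand: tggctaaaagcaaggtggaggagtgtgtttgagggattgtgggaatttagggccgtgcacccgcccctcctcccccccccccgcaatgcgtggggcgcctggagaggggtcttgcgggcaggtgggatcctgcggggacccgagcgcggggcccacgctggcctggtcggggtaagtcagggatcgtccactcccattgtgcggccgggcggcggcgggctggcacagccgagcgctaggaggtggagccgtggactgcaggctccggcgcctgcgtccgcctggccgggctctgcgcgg

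The motifs were searched on both strands as letters, namely CACGTG, the GC box with the letters GGGCGG, the TATA box with the letters TATAAA, the ETS core with the letters GAGGAAGT, and the amino acid response element with the letters TGATGNAA. Positions are counted from the start, which lies 250 bases into each window. In its window Slc43a1 held CACGTG at -64, TATAAA at -216 and -201, and GAGGAAGT at -2. It also held GGGCGG on the opposite strand at -245 and -82, with no overlap between these matches. That window lies wholly inside the gene's span, downstream of its first base at chr2:84838850. Its positions therefore count from an internal start and not from the gene's first base. Slc25a13 held CACGTG at -125, and Slc4a3 held GGGCGG at -190 on the opposite strand and at -44. The Slc4a3 window begins before the first base given for that gene, but the start its positions count from lies downstream of that base. Start windows were found for 144 of the 186 members, 194 windows in all, and 14.4% of them held CACGTG, against 10.01% of 11263 windows of tested genes and 7.15% of 32851 windows in the table. The shares for GGGCGG were 71.6% of members' windows, 62.8% of tested genes' and 35.7% of all windows. TATAAA was in 6.19%, 6.91% and 13.6% of these 3 sets, GAGGAAGT in 2.58%, 3.22% and 3.20%, and TGATGNAA in 3.09%, 2.33% and 3.97%. Members' windows had a median GC content of 61.3%, tested genes' windows one of 60.7% and all windows one of 52.7%, and the sets were not matched on it. A match is a description of these letters and not of binding.

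As a whole the list leaned slightly below 0. In aged against young microglia 65 members had a log2 fold change above 0 and 121 below 0, or 65.1% below, against 49.5% of all tested genes. The median log2 fold change was -0.064 for the members and 0.0016 for all tested genes. At an unadjusted limma p under 0.05, 11 members were higher and 21 lower, 17.2% of the members against 10.8% of all tested genes (5.84% higher and 4.98% lower). In 3 members, Slc43a1, Slc46a1 and Slc29a1, all 6 aged samples lay below all 6 young ones, and in 0 members above them. Among all tested genes 1.87% did not overlap, 1.16% higher and 0.717% lower. Leaving out 1 sample gave 112 members below 0 without aged 2, 114 without young 6, 116 without young 1 and at most 125, without young 4. The median was -0.080 without young 4 and -0.029 without young 1, which was the highest of the 12 samples in 46 of the 186 members. The choroid plexus markers as a covariate gave 104 below 0 and a median of -0.011, and the astrocyte markers 132 below 0 and a median of -0.10. On the 4 samples with 2 libraries each, a set chosen after seeing the data, 101 were below 0, with a median of -0.013.

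All members together took 1.57% of the counts in aged and 1.63% in young samples. Summed over members, the counts ran from 399117 over 425241 to 443736 in aged samples and from 417264 over 440710.0 to 474172 in young samples. The ages overlapped, with young 1 highest and aged 6 lowest. By length of their merged exons, the most abundant members were Slc25a5, the ADP/ATP exchanger of mitochondria, at 7047 normalized counts per kb over all 12 samples, and Slc7a8, the light chain of an exchanger of neutral amino acids, at 6633 per kb. Slc3a2, the heavy chain that brings Slc7a8 and its relatives to the surface, followed at 5592 per kb, and Slc29a3, a lysosomal nucleoside carrier, at 4756 per kb. The 5 called members were among the less abundant: on the same scale they ranked 104 (Slc15a3), 143 (Slc25a13), 158 (Slc7a4), 169 (Slc43a1) and 184 (Slc4a3) of 186.

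**Figure D2:**
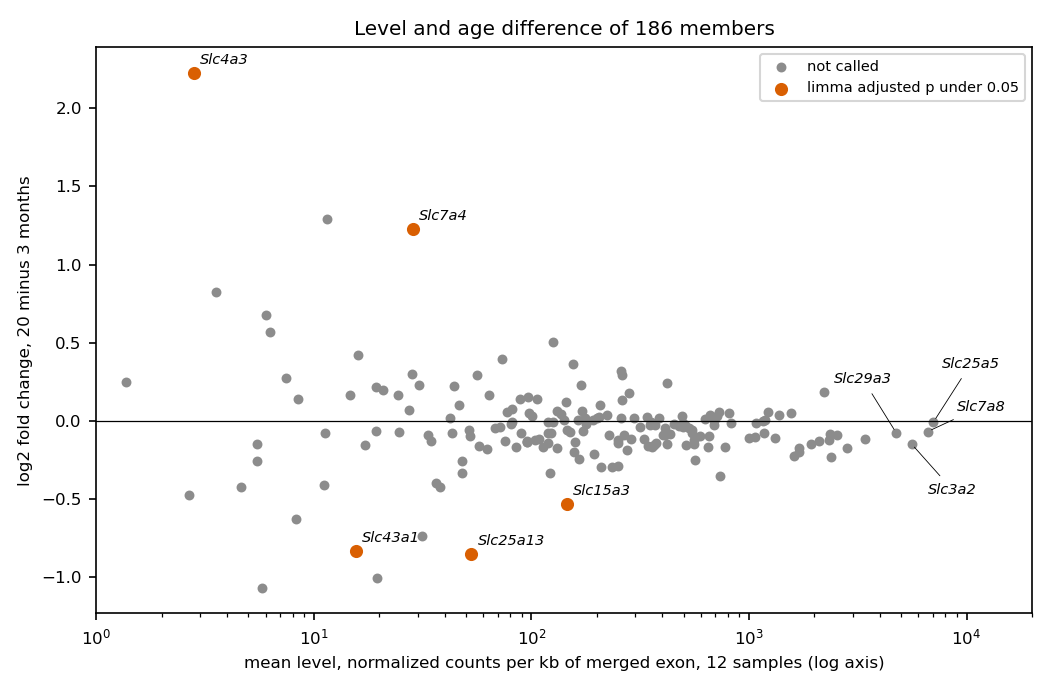
Mean level of each of the 186 members in normalized counts per kb over 12 samples (log axis) against its log2 fold change at 20 minus 3 months. Points spread more widely at low levels, and the 5 called members, in orange, lie at 2.81 to 145 counts per kb, far from Slc25a5 at 7047.

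The 186 members were put into 8 cargo groups by family number, the 4 named after a carrier without being one with the family of their name. The amino acid and peptide group held 30 members, 11 above and 19 below 0, with a median log2 fold change of -0.071, and without Slc7a6os, which is no carrier, 29 members with 10 above 0 and a median of -0.075. Slc7a4 rose, Slc43a1 and Slc15a3 fell, and 27 did not pass. The group summed to 101386 to 117405 normalized counts in aged and 108903 to 124486 in young samples. Slc7a8 took the most counts, 32412 ± 2830.3 in aged and 33985 ± 3258 in young samples (SD, n = 6 each; limma adjusted p = 0.86), and its 2 ages overlapped widely. The other light chains of this kind, among them Slc7a5, which imports leucine, and Slc7a7, which exchanges cationic for neutral amino acids, did not pass either. Slc7a5 stood at 3802 ± 600.5 in aged and 4059 ± 376 in young samples and Slc7a7 at 4202 ± 266 in aged and 4531 ± 418 in young samples. Slc7a11, which brings in cystine in exchange for glutamate, stood at 101 ± 24.2 in aged and 67.0 ± 29.2 in young samples (log2 fold change 0.68 ± 0.27, limma adjusted p = 0.335).

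The relatives of the called amino acid carriers did not share their calls. In the SLC43 family, whose tested members are all 3 below 0, Slc43a3, a carrier of purine bases, stood at 146 ± 32.8 in aged and 194 ± 27.2 in young samples (log2 fold change -0.42, limma adjusted p = 0.329). Slc43a2, another transporter of large neutral amino acids, was far more abundant, at 4238 ± 465 in aged and 4482 ± 402 in young samples (-0.08, limma adjusted p = 0.833). Slc43a1 and Slc43a3 are neighbours on chromosome 2, on the same strand with 72985 bases between them, 1 of 11 pairs of members within 100000 bases. In the SLC15 family Slc15a4, which shares cargo and lysosomal site with Slc15a3, stood at 6617 ± 1200.3 in aged and 6344 ± 998 in young samples (0.06, limma adjusted p = 0.934). Slc15a2, a proton-coupled peptide importer of the surface, had the widest spread within ages of all members. It ran from 13.5 over 97.6 to 286 in aged and from 3.47 over 167 to 221 in young samples, so that young 2 and young 6 stood far below the other 4 young samples.

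**Figure D3:**
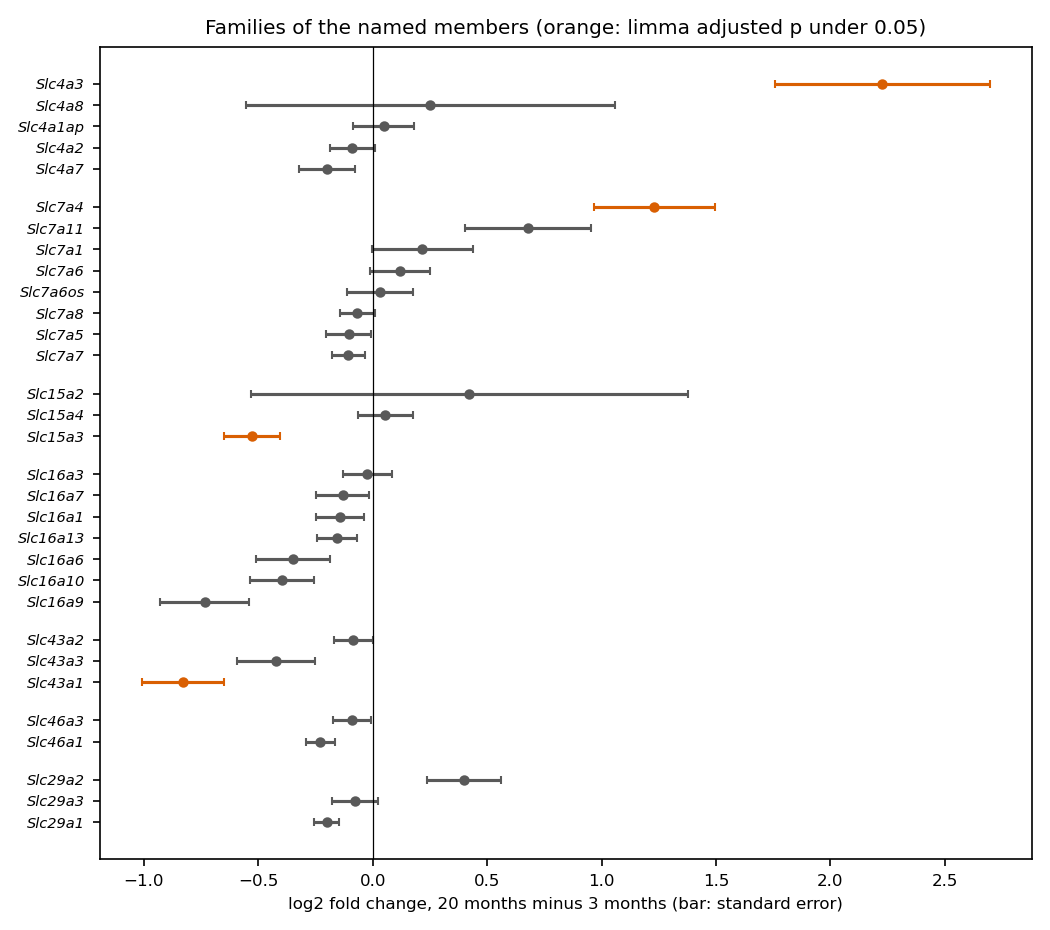
Log2 fold change (aged minus young) of each member of the families SLC4, SLC7, SLC15, SLC16, SLC43, SLC46 and SLC29, with its standard error as a bar and called members in orange. All 7 members of SLC16 and all 3 of SLC43 lie below 0, while in SLC4 only Slc4a3, at 2.23, lies far above it. Slc4a1ap and Slc7a6os, which are no carriers, are drawn with the family of their name.

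The group of mitochondrial carriers was set by family number, SLC25, and not by the known site of each of its 37 members. Of these, Slc25a13 fell, 0 rose and 36 did not pass. The family had 12 members above and 25 below 0, with a median of -0.019. Slc25a22, which imports glutamate into mitochondria, came closest to a higher call. It ran from 929 over 1040.0 to 1173 normalized counts in aged and from 653 over 833 to 947 in young samples, where young 2, the highest of its age, lay just above aged 6. Its means were 1046 ± 82.7 in aged and 815 ± 97.6 in young samples (log2 fold change 0.37 ± 0.09, limma adjusted p = 0.063). It passed without young 2 (limma adjusted p = 0.047) or aged 6 (0.044). Slc25a5 took the most counts of the family, 11586 ± 1277 in aged and 11612 ± 884 in young samples, a log2 fold change of -0.01 ± 0.08. Named after their values were seen, Slc25a10, the dicarboxylate carrier, and Slc25a25, a calcium-regulated carrier of ATP, were lower at an unadjusted p under 0.05. Slc25a10 stood at 724 ± 75.5 in aged and 892 ± 123 in young samples, and Slc25a25 at 848 ± 166 in aged and 1062 ± 172 in young samples (limma adjusted p = 0.234 and 0.318).

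Carriers of carboxylates, sugars and fatty acids, 18 members, had a median of -0.117, with 5 above and 13 below 0 and 0 called. Leaving out 1 sample moved that median between -0.15 and -0.062. Their sums ran from 15811 over 16565 to 17963 normalized counts in aged and from 16273 over 18076 to 21071 in young samples, and the ages overlapped. All 7 tested members of SLC16, the monocarboxylate transporter family, lay below 0, and 3 of them had an unadjusted limma p under 0.05. Among all tested genes 49.5% lay below 0, and 4.98% were lower at that p. Smaller families, SLC6, SLC10 and SLC43 among them, also had every tested member below 0. Slc16a9, a carrier of carnitine and creatine, had the smallest p in SLC16. It ran from 62.6 over 91.7 to 138 in aged and from 129.6 over 148 to 189 in young samples, and the overlap came from aged 6 alone. Means were 92.6 ± 27.2 in aged and 151 ± 22.9 in young samples (log2 fold change -0.73 ± 0.19, limma adjusted p = 0.069), and it passed without aged 6 (0.019). It lies at chr10:70245100-70285968, and 23.5% of its exon length overlaps other genes on the opposite strand. Slc16a10, a uniporter of aromatic amino acids, stood at 229 ± 33.7 in aged and 304 ± 57.3 in young samples (-0.40, limma adjusted p = 0.235). Slc16a6 took the most counts of the group, at 3165 ± 783 in aged and 3998 ± 849 in young samples (-0.35, limma adjusted p = 0.442), also with 22.5% of its exons under genes of the opposite strand. The main carriers of lactate differed less: Slc16a1 and Slc16a3 had log2 fold changes of -0.14 and -0.02. Against this direction Slc5a10, a sodium-coupled carrier of mannose and fructose, stood at 348 ± 63.7 in aged and 244 ± 44.3 in young samples (0.51 ± 0.15, limma adjusted p = 0.124).

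Carriers of vitamins, nucleosides and organic ions, 21 members, had 6 above and 15 below 0, a median of -0.095 (-0.164 to -0.030 when 1 sample was left out) and 0 called. The group held 2 of the 3 members whose ages did not overlap, all 3 lower in aged samples. Among all tested genes 0.717% did not overlap and were lower, and 1.87% did not overlap in either direction. Slc46a1, which takes up folate with protons, ran from 6046 over 6838 to 7269 normalized counts in aged and from 7476 over 7899 to 8519.8 in young samples. The means, 6788 ± 433 in aged and 7945 ± 379 in young samples, gave a log2 fold change of -0.23 ± 0.06 (limma adjusted p = 0.080; 0.071 to 0.18 when 1 sample was left out). Slc29a1, the equilibrative carrier of adenosine and other nucleosides at the cell surface, ran from 6087 over 6412 to 6503 in aged and from 6806 over 7308 to 7808 in young samples. It had the smallest spread within ages of all 186 members, and its means were 6359 ± 161 in aged and 7318 ± 369 in young samples (-0.20 ± 0.06, limma adjusted p = 0.092). Its relatives pointed in different directions: Slc29a2 stood at 252 ± 54.5 in aged and 189.5 ± 31.5 in young samples (0.40, limma adjusted p = 0.329), and Slc29a3, with the most counts of the group, at 26977 ± 3223 in aged and 28514 ± 4051 in young samples (-0.08). Slc22a18, a relative of the organic cation transporters in an imprinted region, stood at 27.2 ± 8.45 in aged and 11.96 ± 6.60 in young samples (1.29 ± 0.44, limma adjusted p = 0.219). Slc22a5, Slc22a21 and Slc22a4, which carry carnitine and related cations and lie next to each other on chromosome 11, were all below 0, at -0.21, -0.15 and -0.41, and none passed.

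**Figure D4:**
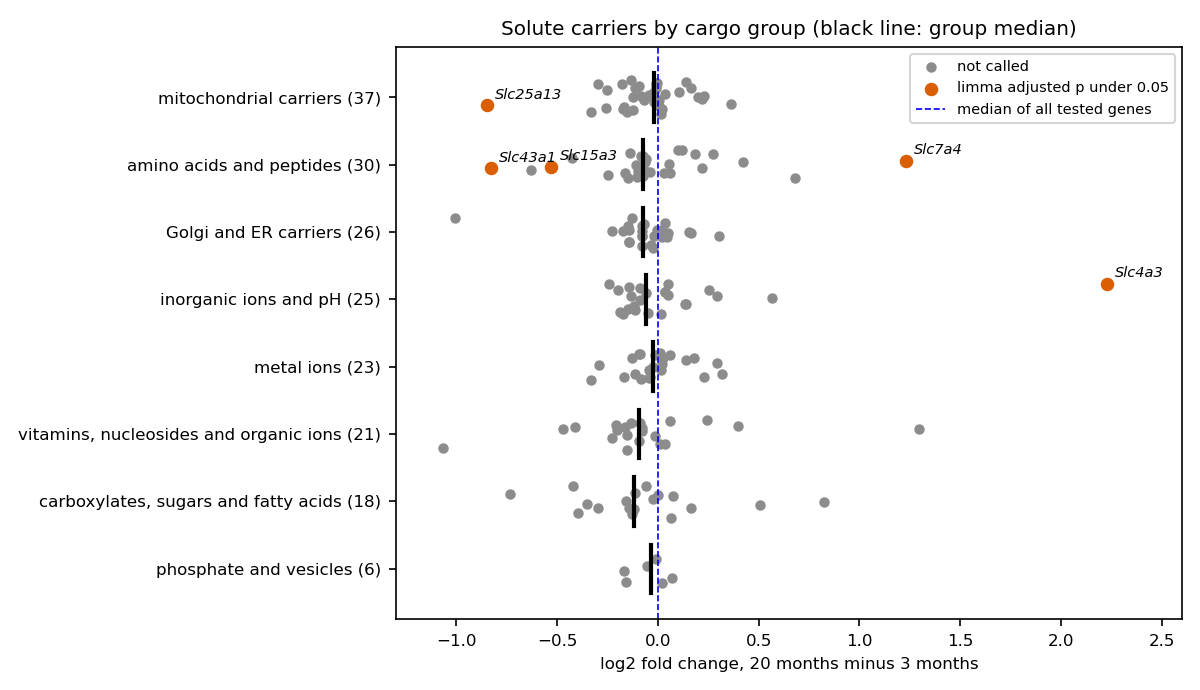
Log2 fold change at 20 minus 3 months of every member in 8 cargo groups (number of members in brackets), with the group's median as a black line, the median of all tested genes as a dashed line and called members in orange. All 8 medians, from -0.117 to -0.019, lie left of the dashed line. The SD of such a median between samples of an age was 0.0496 to 0.0907.

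The 26 Golgi and ER carriers had 8 members above and 18 below 0 with a median of -0.072, and 0 passed. Slc35b2, which brings the sulfate donor PAPS into the Golgi and took the most counts of the group, stood at 8274 ± 494 in aged and 9315 ± 496 in young samples (log2 fold change -0.17 ± 0.06, limma adjusted p = 0.255). Its neighbour Slc29a1 lies 17529 bases away on chromosome 17. Slc35c2, linked to the fucosylation of Notch, stood at 5833 ± 465 in aged and 6818 ± 521 in young samples (-0.23 ± 0.07, limma adjusted p = 0.151), and only aged 4 and aged 6 reached the young range. Slc35g1 had the smallest p above 0, at 147 ± 56.4 in aged and 114 ± 17.1 in young samples (limma adjusted p = 0.728), with aged 1 and aged 5 above all other samples.

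Among 23 metal ion carriers 10 were above and 13 below 0, the median was -0.025 and 0 passed. Slc30a6, of the family that moves zinc out of the cytosol, ran from 651 over 684 to 744 normalized counts in aged and from 741 over 828 to 958 in young samples. Aged 5 alone reached the young range, just above young 4, and the log2 fold change was -0.29 ± 0.09 (limma adjusted p = 0.124). Slc39a12, of the family that moves zinc into the cytosol, stood higher, at 868 ± 132 in aged and 702 ± 49.4 in young samples (0.29 ± 0.10, limma adjusted p = 0.250). Slc39a7, the zinc channel of the ER, took the most counts, 8507 ± 494 in aged and 9198 ± 423 in young samples (limma adjusted p = 0.536), and 80.7% of its exon length is shared with a read-through gene on the same strand.

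The inorganic ion and pH group had 25 members, 11 above and 14 below 0, and a median of -0.056, and without Slc9a3r1, Slc9a3r2 and Slc4a1ap, which are no carriers, 22 members with 8 above and 14 below 0 and a median of -0.088. Slc4a3, a member only through its aged samples, rose, 0 fell and 24 did not pass. Slc4a3 was far less abundant than its relatives Slc4a2, a chloride-bicarbonate exchanger, and Slc4a7, which brings in bicarbonate with sodium: per kb of exon the means over all samples were 2.81, 228 and 158 normalized counts. Slc4a2 had 1841 ± 266 in aged and 1951 ± 221 normalized counts in young samples and Slc4a7 2220.4 ± 271 in aged and 2572 ± 496 in young samples, and neither passed (limma adjusted p = 0.860 and 0.657). Slc9a9, a sodium-proton exchanger of endosomes, stood at 9106 ± 557 in aged and 10267 ± 837 in young samples (-0.17 ± 0.07, limma adjusted p = 0.309), where young 1 was highest. Slc12a9, of the cation-chloride cotransporter family, took the most counts of the group, 9255 ± 1400.4 in aged and 10162 ± 485 in young samples (limma adjusted p = 0.601), with aged 4 highest of all and 4 aged samples below every young one.

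Phosphate carriers and vesicle carriers, 6 members, had 2 above and 4 below 0, a median of -0.032 and 0 called. Slc17a5, which lets sialic acid out of lysosomes, had 1234 ± 193 in aged and 1374 ± 72.1 normalized counts in young samples (log2 fold change -0.17 ± 0.10, limma adjusted p = 0.613). Slc18a2, the vesicular importer of monoamines, had 146 ± 11.6 in aged and 141 ± 28.1 (0.07 ± 0.15, limma adjusted p = 0.935) in young samples.

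**Figure D5:**
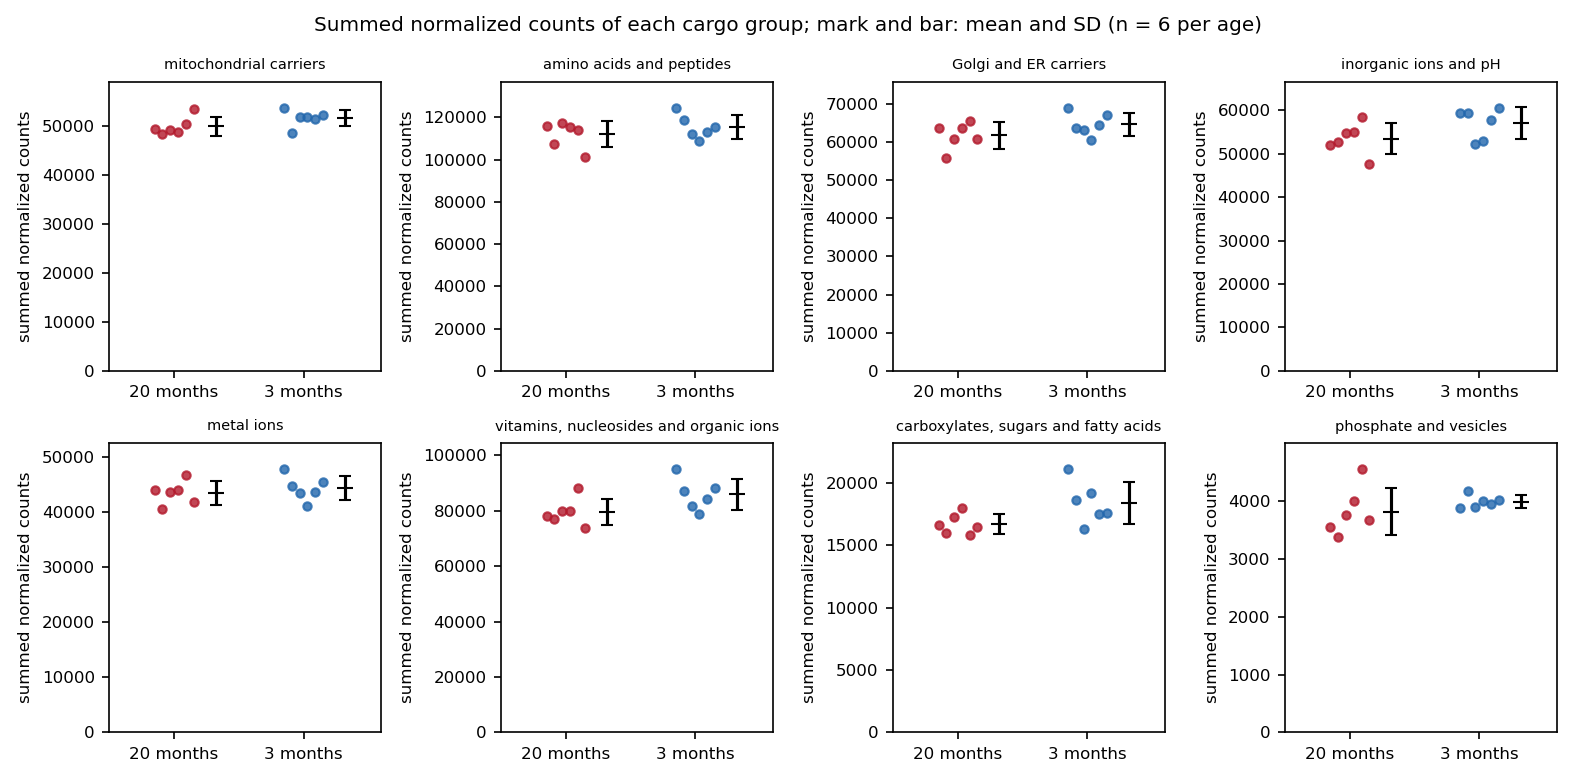
Summed normalized counts of the members of each cargo group, a point per sample, aged (20 months) left of young (3 months), with the mean and SD beside them (n = 6 per age). In all 8 groups the aged mean is the lower, by ratios of 0.908 to 0.980 to the young mean, and the points of both ages overlap.

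Other transport genes, in 6 lists, gave a setting for these values. Of 37 genes listed as carriers without an Slc and digit symbol 0 passed (limma, 2 higher and 3 lower at an unadjusted p under 0.05). Ostc and Mcu, among them, are no carriers. The median log2 fold change of that list, -0.046, was near that of the members. Of 30 ABC transporters, which burn ATP, 0 passed (1 higher and 3 lower at an unadjusted p under 0.05) with a median of 0.0096. The 7 tested subunits of the sodium-potassium pump, which keeps the sodium gradient that many carriers run on, had a median of 0.35. The 18 V-ATPase subunits, 21 other cation pumps and 7 partner proteins of carriers had medians of -0.018, -0.022 and -0.063, and 0 of each passed.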

How the data were processed

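RNA of sorted hippocampal microglia was measured in 12 samples, 6 per age, from 16 libraries, 2 each for young 2, young 4, aged 3 and aged 6. The series' design text names bcl2fastq for demultiplexing, fastx_trimmer for trimming, STAR for alignment, samtools for counting and DESeq2 for the comparison. The submitters' processing notes name mm10, and neither versions nor an annotation were given in the sources used here. The authors deposited normalized counts, a signal per gene, with 1 column per sample. In the 8 samples with 1 library, 100% of the values were whole reads divided by 1 size factor (within 0.1 of a whole read), and the columns of the other 4 match means of 2 libraries, so their depth is an estimate that assumes equal normalized totals.

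No further scaling was applied. Genes reaching 10 in at least 6 of 12 columns were compared as log2 of the value plus 1 with limma 3.58.1 (R 4.3.3), with a mean-variance trend and Benjamini-Hochberg adjustment, and the steps were tested on simulated data. On the recovered reads of the 8 samples, edgeR 4.0.16 called 91 and DESeq2 1.42.0 called 235 of the 11579 genes, against 78 for limma. Marker sums were compared by exact two-sided permutation over 924 assignments. Levels per kb use merged exons of GENCODE M21 for the same build. Alternatives changed the pseudocount, filter, scaling, trend, samples, covariates and block.

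The members, the cargo groups and the other lists were chosen with earlier results of these data known. Named members are those called, those with the most counts or the smallest p in either direction in each cargo group, those whose ages did not overlap, and those with the widest and narrowest spread, 26 in all, with the relatives of called members. Slc16a1, Slc16a3, Slc16a10, Slc22a4, Slc22a5, Slc22a21, Slc29a2, Slc38a10 and Slc3a2 fall outside this rule and were chosen after their values were seen. Values of 1 gene of these other lists are not reported here.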

Additional observations from a re-analysis of the deposited data

Results flagged for a closer look

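In 68 groups of 6 samples looked at, 3 held a sample far from the others of its age, and chance gives about 1 in 20 groups. Slc7a4 stood at 129 normalized counts in young 3, and the next young sample at 72.9. Slc9a9 stood at 11819 in young 1, and the next at 10327. Slc17a5 stood at 1235 in young 1, below the next lowest young sample at 1364.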

How the results depend on the processing

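No result turned its direction past the test under any alternative. The carriers called higher, 2 as reported, were 1 without the filter, with a filter of 50, without the trend, with the choroid plexus covariate and without the 2 aged samples of another strain label, 0 with the astrocyte covariate, on the 4 samples with 2 libraries and on the 8 with 1 library (limma, edgeR), and 4 there with DESeq2. Those called lower, 3 as reported, were 0 without the filter, on the 8 samples (limma, edgeR), on the 4 and with the astrocyte covariate, and 1 with the choroid plexus covariate. Leaving out 1 sample gave 1 to 3 higher (1 without young 1, young 4, aged 3 or aged 4; 3 without young 2 or aged 6) and 0 to 4 lower (0 without young 5 or young 6, 1 without young 2 or aged 1). The sample numbers did not pair the samples (correlations of deviations from -0.12 to 0.11), and with the number as a replicate block 1 carrier was higher (Slc4a3) and 1 lower (Slc15a3). Over all genes, 147 higher and 53 lower became 67 and 11 (8 samples, limma), 76 and 15 (edgeR), 63 and 22 (astrocyte covariate), 18 and 1 (4 samples), with 30 lower under the replicate block, 32 with the choroid plexus covariate, and 102 to 175 higher and 27 to 60 lower leaving out 1 sample.

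Median log2 fold changes moved as follows. With the choroid plexus covariate they were -0.011 for all members, 0.00034 for Golgi and ER carriers, 0.012 for amino acids, -0.025 for carboxylates and -0.18 for sodium-potassium pumps. With the astrocyte covariate they were -0.16 for Golgi and ER carriers, -0.078 for mitochondrial carriers, -0.14 for phosphate carriers, -0.20 for vitamins and -0.14 for partner proteins. On the 4 samples they were -0.013 for all members, 0.019 for Golgi and ER carriers, 0.070 for V-ATPase and 0.027 for partner proteins. For mitochondrial carriers they were -0.10, -0.096 and -0.096 on the 8 samples (limma, edgeR, DESeq2) and -0.082 without the 2 aged samples. By unadjusted exact permutation p, the difference in astrocyte markers was 3.16 CPM over all samples (p = 0.024), 3.78 on the 8 samples (p = 0.14) and 1.28 without the 2 (p = 0.057), and that of markers of oligodendrocyte precursors 1.05 over all samples (p = 0.056) and 1.37 without the 2 (p = 0.038). Leaving out 1 sample, astrocyte markers ran from 1.597 (without aged 5) to 3.87, the precursor markers from 0.593 (without aged 2) to 1.32, choroid plexus from 28.6 (without aged 5) to 51.6 and border macrophages from 2.14 (without aged 2) to 6.28 CPM, and medians from -0.065 to -0.013 for mitochondrial carriers and from -0.036 to -0.0029 for metal ions, with all 8 group medians below 0. The causes were not tested. Low counts limit the 12 members with a sample below 10, Slc4a3 and Slc22a18 among them.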
